A study of Mus musculus with 3 samples.

Results

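This section describes 10 genes that carry glucose into the cell and through glycolysis, out of 18478 genes measured in single Müller glia of the adult mouse retina. They were chosen by name: the glucose carrier Slc2a1, the hexokinases Hk1 and Hk2, the aldolases Aldoa and Aldoc, the enolases Eno1 and Eno1b, the pyruvate kinase Pkm, the phosphoglycerate mutase Pgam1 and the lactate dehydrogenase Ldha. Single-cell RNA sequencing was run on a 10X Genomics Chromium instrument with a kit that reads the 3′ end of transcripts and counts molecules by unique molecular identifiers (UMIs). All 3 runs belong to 1 group, and no control was analysed here. The mice carried the transgene Yap5SA+/tg, the Cre reporter ROSA26R-tdTomato+/tg and the tamoxifen-dependent recombinase Glast-CreERT+/tg (the series' design text spells the Cre allele Glast-CreERT2+/tg). Tamoxifen activated the Cre, the retina was injured with NMDA (N-methyl-D-aspartate), which kills retinal neurons, and tdTomato+ cells were sorted 2 days later. Yap5SA is a form of the transcriptional co-activator YAP in which serines that the Hippo kinases phosphorylate are replaced. The Glast promoter is active in Müller glia and also in astrocytes, so both cell types can carry the tdTomato reporter. The labels do not say whether the runs are separate animals. Every p-value below therefore measures only how the differences between classes vary from run to run, with counting error. That spread may be technical.

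Glycolysis splits glucose into pyruvate, which is oxidised in mitochondria or reduced to lactate by lactate dehydrogenase. Several steps have paralogous enzymes with different tissue use: Aldoc is the aldolase of brain and retinal glia while Aldoa is found in most cells, and Hk1 is the hexokinase of most brain cells while Hk2 is the form induced in muscle and many proliferating cells. Müller glia have been described as a highly glycolytic cell type that releases lactate in the retina, which was not measured here. The shift of proliferating cells towards lactate production is known as aerobic glycolysis.

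The promoters of 4 members are shown because Aldoc was lower and Slc2a1, Aldoa and Ldha were higher in Igfbp2-high than in Igfbp2-low non-cycling cells, the comparison described first below. Each sequence is the 250 bases before a RefSeq transcript start on GRCm38.p6 (mm10), written 5′ to 3′ on the gene's own strand. Capitals mark ACGTG or its complement CACGT, the core letters that hypoxia-inducible factors bind, and CATTCC or its complement GGAATG, letters bound by TEAD factors, the DNA-binding partners of YAP.
Slc2a1, chr4:119108495-119108744, plus strand: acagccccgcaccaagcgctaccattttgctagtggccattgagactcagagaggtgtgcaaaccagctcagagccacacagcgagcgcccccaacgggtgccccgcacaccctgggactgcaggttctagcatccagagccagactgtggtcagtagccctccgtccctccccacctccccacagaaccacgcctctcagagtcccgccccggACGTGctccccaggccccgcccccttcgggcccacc
Aldoa, chr7:126799255-126799504, minus strand: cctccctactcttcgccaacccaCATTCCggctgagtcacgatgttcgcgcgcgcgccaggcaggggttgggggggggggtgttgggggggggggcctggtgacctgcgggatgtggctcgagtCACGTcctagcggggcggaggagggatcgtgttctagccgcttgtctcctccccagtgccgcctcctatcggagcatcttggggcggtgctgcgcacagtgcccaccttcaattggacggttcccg
Aldoc, chr11:78322823-78323072, plus strand: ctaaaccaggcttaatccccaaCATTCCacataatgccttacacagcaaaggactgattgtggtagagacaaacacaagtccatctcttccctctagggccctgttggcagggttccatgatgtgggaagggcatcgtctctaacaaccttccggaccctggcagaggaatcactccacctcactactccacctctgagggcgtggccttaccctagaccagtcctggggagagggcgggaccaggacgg
Ldha, chr7:46845554-46845803, plus strand: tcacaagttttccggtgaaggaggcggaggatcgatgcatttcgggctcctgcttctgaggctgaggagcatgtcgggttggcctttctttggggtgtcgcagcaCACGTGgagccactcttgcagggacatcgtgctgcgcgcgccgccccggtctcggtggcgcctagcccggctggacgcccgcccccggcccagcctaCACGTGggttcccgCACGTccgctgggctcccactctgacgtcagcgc
The Slc2a1 window held 1 ACGTG match, the Ldha window 3, and the Aldoa window 1 match of each motif. The Aldoc window held 1 CATTCC match. All 4 of these starts lie inside the gene as GENCODE annotates it, and where a gene had several windows the one with the most matches is shown. RefSeq windows were found for 9 of the 10 members, 17 windows in all, some of which overlap within a gene. ACGTG stood in 7 of the 17, in 6 genes, against 16.6% of all 32851 mouse windows of the same length. CATTCC stood in 4, in 3 genes, against 12.6% of all windows. These are matches of letters only, and no binding was measured.

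In the GENCODE M21 annotation of mm10, Slc2a1 spans chr4:119108711-119137983, Hk1 chr10:62268855-62379908, Hk2 chr6:82725025-82774454 and Pkm chr9:59656368-59679375. Aldoc lies at chr11:78322968-78327781, Eno1 at chr4:150236721-150248879, Pgam1 at chr19:41911923-41918660 and Ldha at chr7:46841475-46855627. Aldoa carries 2 gene entries of the same symbol at chr7:126795234-126800751 and chr7:126800790-126809108. Eno1b is annotated as a retrogene of Eno1 on chromosome 18. The last 500 transcript bases, where reads of this kit fall, were 99.4% identical between Eno1 and Eno1b over 497 aligned bases, with 3 mismatches, and 3 pseudogenes also resembled them. The counts of this pair are therefore uncertain. The other 8 members had no gene of another symbol at 95% identity or more over 100 bases or more. Entries of the same symbol were left out of this search, so the 2 Aldoa entries were not compared. The counts do not say which of these entries was counted.

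The runs held 24695 cells, of which 24672 passed the filters, with median depths of 9664, 11200.5 and 9407 UMIs per cell. Runs shared between 83 and 108 cell barcodes pair by pair. Cells were divided by 2 readouts that involve no member. Igfbp2, a secreted binder of insulin-like growth factors, put cells in a high class at 5 or more per 10000 UMIs and in a low class below 1. The summed UMIs of Top2a, Mki67, Cdk1 and Ccnb1, genes of dividing cells, called a cell cycling at 2 or more and non-cycling at 0. The 4 classes took in 19418 cells (78.7%). Over the 3 runs they held 4961 Igfbp2-high cycling, 1126 Igfbp2-high non-cycling, 286 Igfbp2-low cycling and 13045 Igfbp2-low non-cycling cells. Median depth per run lay between 20985.5 and 23815.5 UMIs in the Igfbp2-high cycling class and between 8454 and 10221.5 in the Igfbp2-low non-cycling class. All 14 Müller glia markers, such as Glul and Rlbp1, were at 10 CPM or more in every class (CPM is the counts-per-million scale, the UMIs of a gene relative to the summed UMIs of the class in a run). Their summed level was 34999 to 41687 CPM in Igfbp2-low non-cycling cells and 12768 to 15279 CPM in Igfbp2-high cycling cells. Cells with astrocyte markers made up 12.4% of the Igfbp2-high non-cycling class and 0.107% of the Igfbp2-low non-cycling class. Cells with microglia markers made up 9.09% of the Igfbp2-low cycling class.

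Levels are given in CPM. Reads of this kit fall at the transcript end, so levels carry no length term. Over all kept cells Eno1 had the highest level of the 10, at 1760 ± 617 CPM (SD, n = 3 runs), rank 99 of all genes. Aldoa (841 ± 79.2 CPM, rank 177), Pkm (753 ± 120 CPM, rank 202), Pgam1 (538 ± 50.8 CPM, rank 262), Aldoc (470 ± 116 CPM, rank 307) and Ldha (454 ± 77.0 CPM, rank 313) followed. Slc2a1 (142 ± 24.3 CPM, rank 1096) and Eno1b (139 ± 79.9 CPM, rank 1114) were lower. Hk1 stood at 48.5 ± 5.45 CPM (rank 2965) and Hk2 at 12.3 ± 1.88 CPM (rank 7367). Among neighbours in this order, Aldoa and Pkm, Pgam1 and Aldoc, Aldoc and Ldha, Slc2a1 and Eno1b, and Eno1b and Hk1 (through run 2) overlapped over the runs, while the other neighbours did not.

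**Figure D1:**
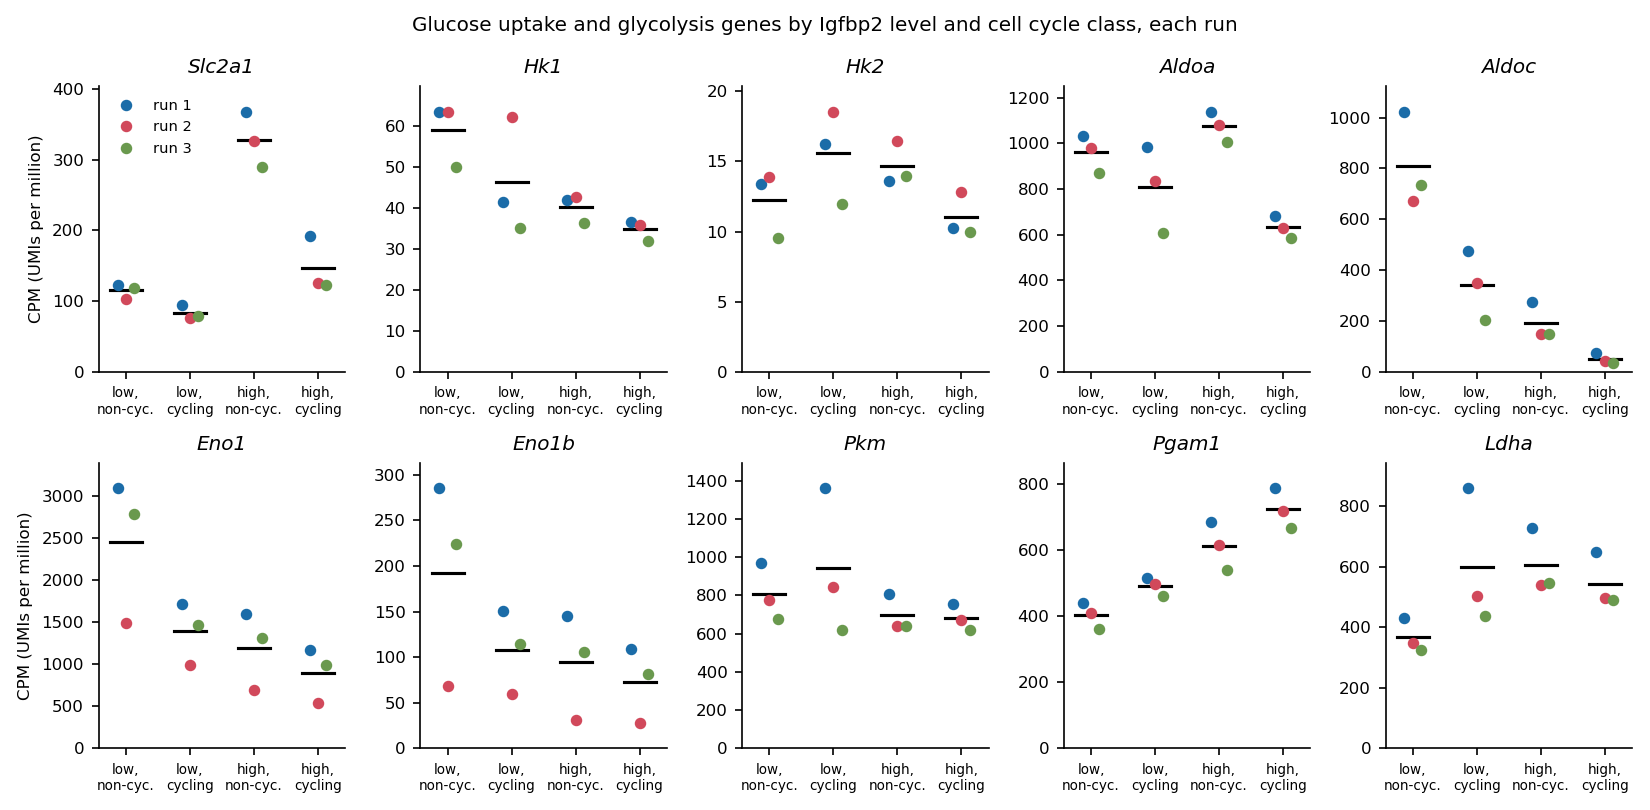
Level of each of the 10 genes in CPM, on a linear axis from 0 for each gene, in the 4 Igfbp2 and cycle classes; each point is 1 run and the black line is the mean of the 3. Aldoc spans the widest range as a ratio, from 35.8 CPM in Igfbp2-high cycling cells to 1022 CPM in Igfbp2-low non-cycling cells, and Slc2a1 is highest in Igfbp2-high non-cycling cells.

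In non-cycling cells, those with high Igfbp2 had more of the glucose carrier Slc2a1, of Pgam1 and of Ldha, and less Aldoc, Eno1, Eno1b and Hk1, than those with low Igfbp2. Of the 10 members, all of which passed the filter on low counts, 5 rose and 4 fell (edgeR quasi-likelihood test, Benjamini-Hochberg adjusted p under 0.05). In this comparison 27.8% of the 14303 genes tested rose and 29.6% fell, so changes were common among genes at large. The median log2 change of the members was 0.02, and that of all genes was -0.05.

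Slc2a1, which encodes GLUT1, stood at 368, 327 and 290 CPM in the Igfbp2-high non-cycling cells of runs 1, 2 and 3. In Igfbp2-low non-cycling cells it stood at 122.5, 104 and 119 CPM. Each Igfbp2-high value lay above every Igfbp2-low value, and the log2 change was 1.55 ± 0.11 (SE; edgeR adjusted p = 2.74e-08), a 2.92-fold difference. In cells of the same classes thinned to 3500 UMIs each, 50.9% ± 2.51 of Igfbp2-high and 31.7% ± 2.73 of Igfbp2-low non-cycling cells had a Slc2a1 UMI (SD, n = 3 runs), against 21.5% ± 10.3 of the cells with microglia markers. Without thinning the first 2 shares were 80.2% and 61.9%. Among the hexokinases, which phosphorylate glucose once it has entered, Hk1 fell by 0.50 ± 0.09 on the log2 scale (edgeR adjusted p = 0.000227), from 63.4, 63.4 and 50.04 CPM to 41.9, 42.6 and 36.3 CPM. Hk2 rose by 0.31 ± 0.11 (edgeR adjusted p = 0.0271), and its values of 13.6, 16.5 and 14.0 CPM overlapped with 13.4, 13.9 and 9.52 CPM. The Hk2 call was lost without run 2 (adjusted p = 0.121) or run 3 (0.224). It was 0.63 with cells carrying markers of other types left out and 0.996 with the authors' own cell set.

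Further down the pathway the members diverged. Pgam1, which moves the phosphate of 3-phosphoglycerate, rose from 440, 411 and 361 CPM to 686, 615 and 541 CPM, with no overlap between classes (log2 change 0.65 ± 0.06, edgeR adjusted p = 5.05e-07). Ldha, which makes lactate from pyruvate, rose from 430, 349 and 325 CPM to 729, 539 and 547 CPM (log2 change 0.75 ± 0.10, edgeR adjusted p = 1.15e-05). Every Igfbp2-high value of both genes lay above every Igfbp2-low value. With the authors' own cell set the Ldha change was 0.44. Eno1 fell by 1.01 ± 0.08 (edgeR adjusted p = 7.27e-08). Pkm, the last step before pyruvate, changed by -0.16 ± 0.11 and did not pass the test (edgeR adjusted p = 0.232). It passed in the same direction in 3 of 14 alternatives, such as with cells of other types left out (-0.18, edgeR adjusted p = 0.0179). Counted as UMIs per cell, where the median gene was higher by 0.52 in these deeper cells, Hk1 stood at 0.07. Pkm stood at 0.41 on that scale and passed (edgeR adjusted p = 0.00418). The other 8 members kept their direction.

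**Figure D2:**
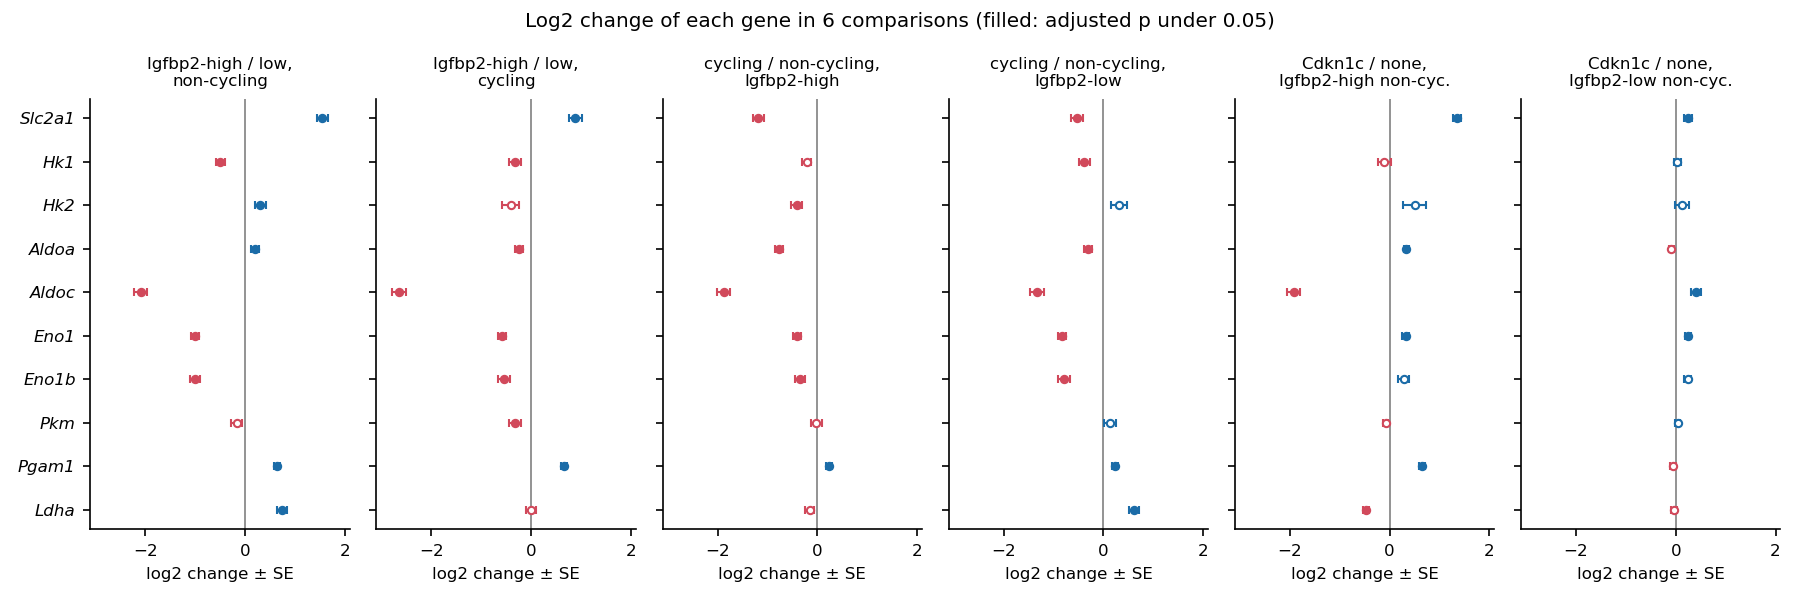
Log2 change of each of the 10 genes in the 6 comparisons between classes, with bars of 1 SE, blue above 0 and red below; filled points passed the edgeR test at adjusted p under 0.05. Aldoc lies far below 0 in every comparison except the one by Cdkn1c in Igfbp2-low cells, where it is at 0.41, and Slc2a1 runs against it between the Igfbp2 classes.

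The largest change among the members was in the aldolases, which cleave fructose bisphosphate. Aldoc stood at 1022, 670 and 734 CPM in Igfbp2-low non-cycling cells and at 273, 148 and 150 CPM in Igfbp2-high non-cycling cells. The classes were far apart, and the log2 change was -2.09 ± 0.13 (edgeR adjusted p = 1.31e-08), a 4.26-fold lower level. Aldoa differed little, at 1033, 981 and 869 CPM against 1137, 1081 and 1006 CPM. Its change of 0.21 ± 0.08 passed the test narrowly (edgeR adjusted p = 0.0428) and was lost without run 2 (adjusted p = 0.165) and when cells were thinned to 3500 UMIs and the classes set anew from the thinned counts, which also changes their members (log2 change 0.01).

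Since both aldolases were counted in the same cells, their balance does not depend on scaling. Aldoc gave 45.4% ± 4.59 (SD, n = 3 runs) of the aldolase UMIs in Igfbp2-low non-cycling cells, 29.1% ± 3.67 in Igfbp2-low cycling cells, 14.8% ± 3.99 in Igfbp2-high non-cycling cells and 7.44% ± 2.24 in Igfbp2-high cycling cells. The log2 ratio of Aldoc to Aldoa was lower by 2.29 ± 0.23 (SD) in the non-cycling and by 2.39 ± 0.24 in the cycling Igfbp2-high cells. All 3 runs moved the same way in both, which gives an exact sign-flip p of 0.25, the smallest that 3 runs allow. Leaving out cells with markers of other types moved these differences to -2.95 and -2.67.

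**Figure D3:**
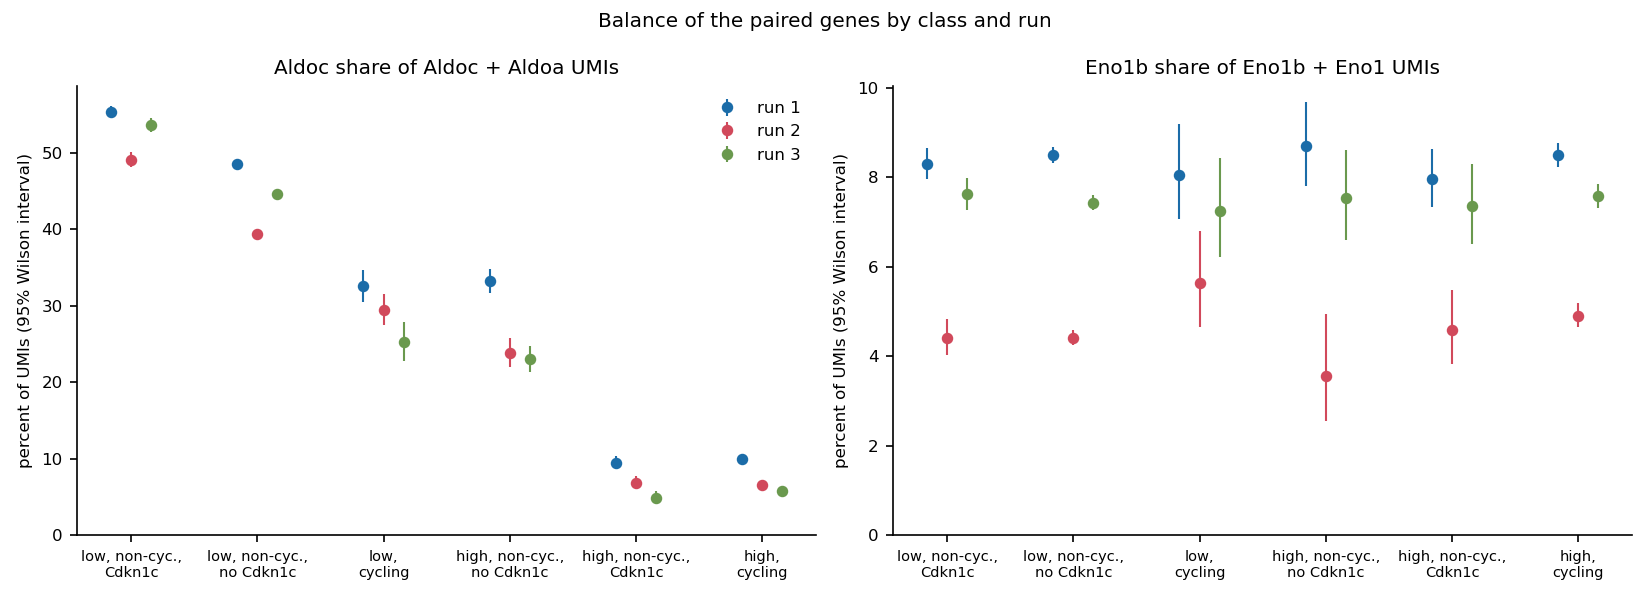
Share of Aldoc in the Aldoc and Aldoa UMIs (left) and of Eno1b in the Eno1b and Eno1 UMIs (right), in percent, for 6 classes and 3 runs, with 95% Wilson intervals that cover counting error only. The Aldoc share runs from 55.3% in run 1 of Igfbp2-low cells with Cdkn1c to 4.83% in run 3 of Igfbp2-high cells with Cdkn1c, while the Eno1b share is ordered by run.

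In single cells thinned to 3500 UMIs, 80.4% ± 3.54 (SD, n = 3 runs) of Igfbp2-low non-cycling cells held UMIs of both aldolases and 14.4% held Aldoa alone. In Igfbp2-high non-cycling cells these shares were 28.1% ± 6.09 and 65.7%, and in Igfbp2-high cycling cells 10.8% ± 3.62 and 75.0%. In total 11.9% ± 3.60 of thinned Igfbp2-high cycling cells and 29.6% ± 6.57 of Igfbp2-high non-cycling cells had an Aldoc UMI. Cells with microglia markers, a type not known for Aldoc, had one in 26.4% ± 8.66 (55, 30 and 12 cells), at median depths of 6212 to 15672 UMIs before thinning. The share in Igfbp2-high cycling cells lay below that of these few cells and is not read as expression, and that in Igfbp2-high non-cycling cells lay within 1 SD of it. Differences in Aldoc that involve these 2 classes are therefore differences in UMIs counted, and their size may not be that of a change in expression.

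**Figure D4:**
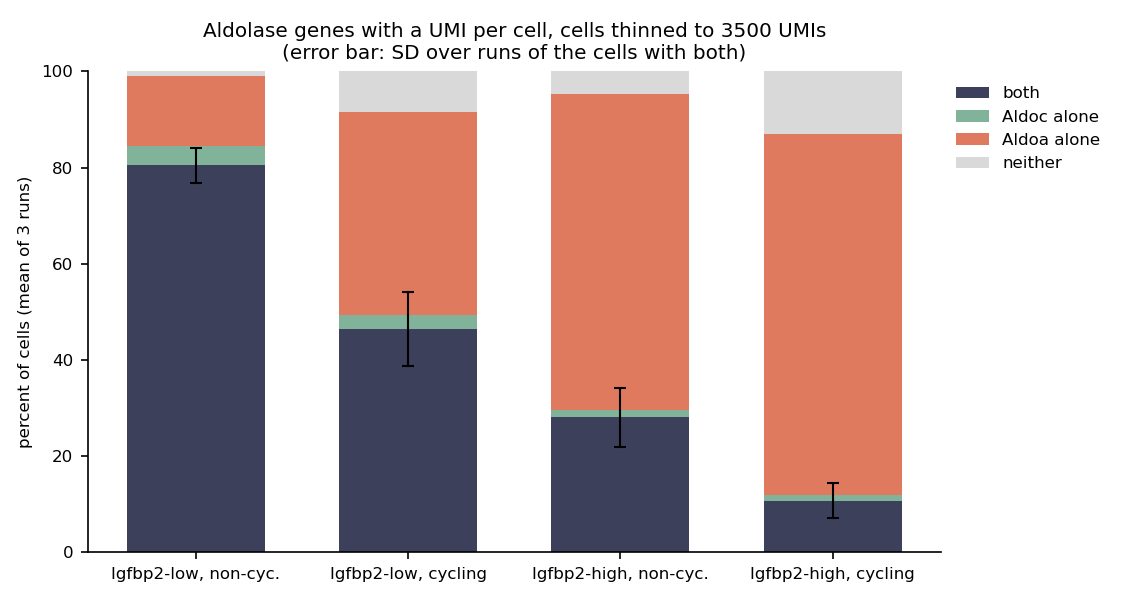
Percent of cells with a UMI of both aldolase genes, of one alone or of neither, in the 4 classes, after thinning each cell to 3500 UMIs; bars are means of 3 runs and the error bar is the SD of the share with both. Cells with both fall from 80.4% to 10.8%, while cells with Aldoa alone rise from 14.4% to 75.0%.

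Finer bins show how the levels run along Igfbp2. In non-cycling cells without markers of other types, the bin just below the limit (1 to 5 Igfbp2 per 10000 UMIs) had 814 ± 188 CPM of Aldoc and 116 ± 12.8 CPM of Slc2a1 (SD, n = 3 runs). The bin just above it (5 to 20) had 183 ± 95.7 and 185 ± 22.1 CPM. At 50 or more, Aldoc reached 49.1 ± 1.27 CPM and Slc2a1 623 ± 42.3 CPM. Slc2a1 was level over the 3 bins below the limit and higher in each bin above it. Pgam1 went from 399 ± 39.7 CPM in cells without Igfbp2 to 830 ± 42.5 CPM in the highest bin, and Aldoa from 951 ± 82.2 to 1181 ± 80.1 CPM. Ldha went from 359 ± 51.9 to 572 ± 110 CPM.

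**Figure D5:**
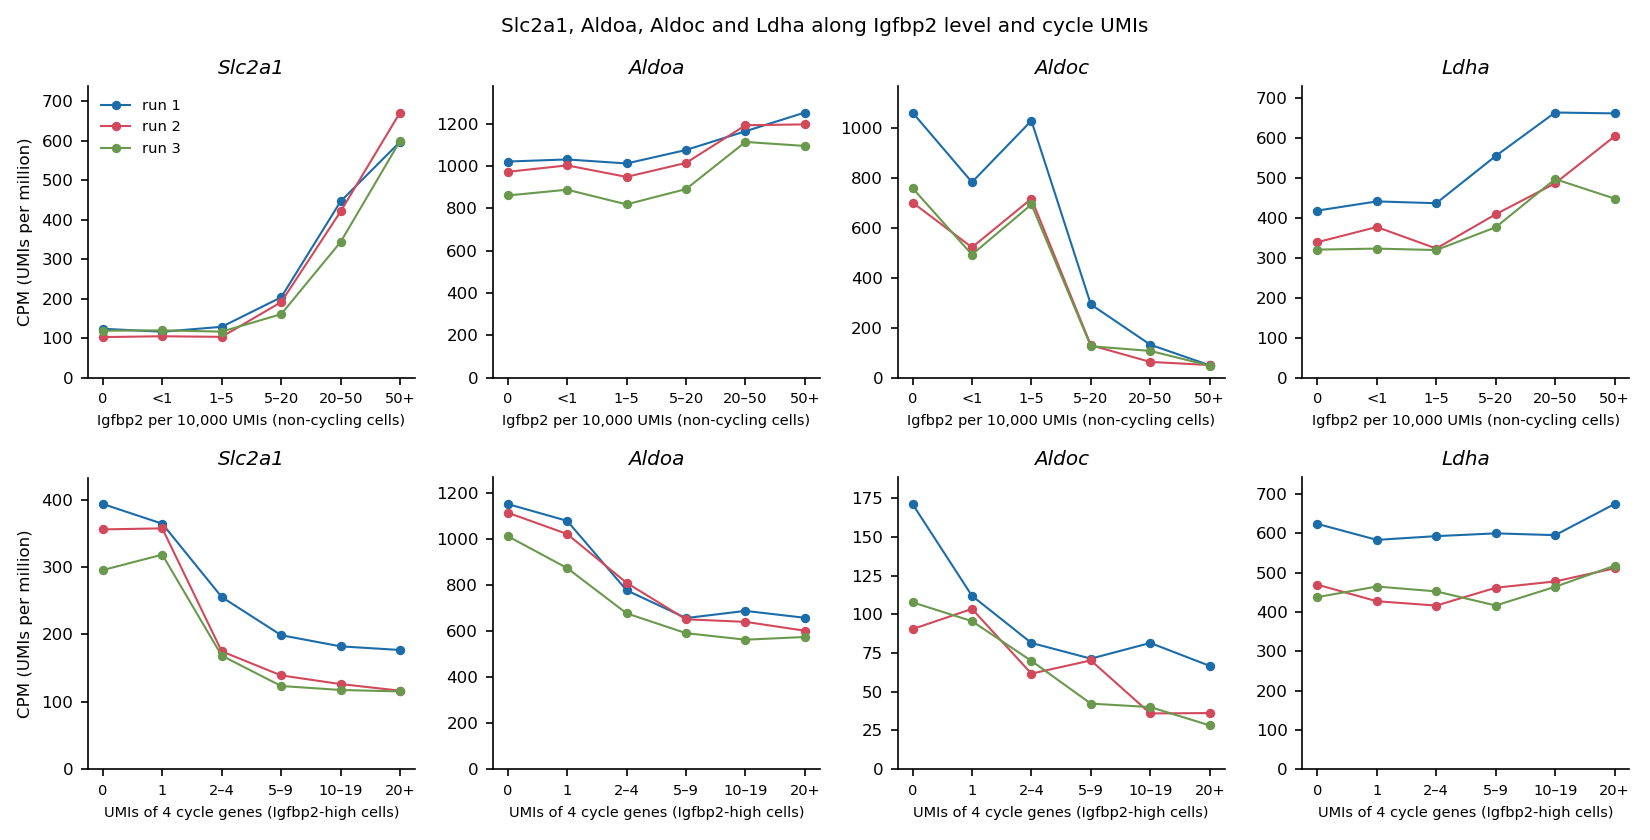
Level in CPM (linear axis from 0, 1 line per run) of Slc2a1, Aldoa, Aldoc and Ldha over bins of Igfbp2 in non-cycling cells (upper panels) and over bins of summed cycle-gene UMIs in Igfbp2-high cells (lower panels), without cells carrying markers of other types. The mean of Slc2a1 climbs from 115 to 623 CPM along Igfbp2 and drops from 348 to 136 CPM along the cycle genes, while Aldoc is low in the 3 highest Igfbp2 bins and lower still at high cycle counts.

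Among cycling cells the Igfbp2-high class again had more Slc2a1 and Pgam1 and less Aldoc, and less enolase in CPM. Here 2 members rose, against 25.5% of all genes tested, and 6 fell, against 19.6%; the members' median log2 change was -0.33 and that of all genes 0.05. Slc2a1 stood at 192, 125 and 122.8 CPM in Igfbp2-high cycling cells and at 94.5, 76.5 and 78.6 CPM in Igfbp2-low cycling cells, without overlap (log2 change 0.89 ± 0.13, edgeR adjusted p = 9.18e-05). Aldoc stood at 75.6, 44.2 and 35.8 CPM against 475, 349 and 204 CPM. That is a log2 change of -2.65 ± 0.14 (edgeR adjusted p = 1.2e-08), and the lowest Igfbp2-low value was well above the highest Igfbp2-high value. Pgam1 rose by 0.65 ± 0.06 (edgeR adjusted p = 1.72e-06), as much as in non-cycling cells.

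Eno1 fell by 0.58 ± 0.08 and Eno1b by 0.55 ± 0.12 in that comparison. Hk1, Aldoa and Pkm passed the test at edgeR adjusted p of 0.0344, 0.026 and 0.0354. Those of Hk1 and Aldoa were lost without run 2 (0.743 and 0.225), that of Aldoa also without run 1 (0.0859), and that of Pkm without run 1 (0.241) or run 2 (0.132). On UMIs per cell these 3 genes turned to 0.14, 0.22 and 0.15, where the median gene moved by 0.51. Eno1 and Eno1b stood at -0.12 and -0.10 on that scale, and neither passed (edgeR adjusted p = 0.24 and 0.527). In the main test Hk2 did not pass, nor did Ldha (-0.01, edgeR adjusted p = 0.927). The Igfbp2-low cycling class was small, with 88 to 105 cells per run, and its summed microglia markers reached from 292 to 5552 CPM, with 10 of 11 markers at 10 CPM or more. With cells of other types left out, Pkm came to -0.09 and its call was lost (edgeR adjusted p = 0.32), and Ldha came to 0.24 and passed (adjusted p = 0.00771). The Ldha value lay above 0 in 8 of its 14 alternatives and passed in 3 of them, at 0.24, at 0.29 with Igfbp2 of at least 20 against 0, and at 0.45 on UMIs per cell. Slc2a1, Aldoc, Eno1, Eno1b and Pgam1 kept direction and call without the other cell types, at 0.76, -2.93, -0.76, -0.75 and 0.72. Requiring 5 or more cycle UMIs left 25 to 37 such cells per run, with Aldoc at 93.8, 54.9 and 53.8 CPM. The Aldoc change was then -0.35 (edgeR adjusted p = 0.2), and Eno1 and Eno1b turned to 0.26 and 0.38.

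Within the Igfbp2-high cells, cycling cells had lower levels of most members than non-cycling cells, Pgam1 excepted. In this comparison 6 of the 10 fell, against 23.2% of all genes, and 1 rose, against 24.8%; the medians were -0.38 for the members and -0.01 for all genes. Slc2a1 fell by 1.18 ± 0.11 (edgeR adjusted p = 5.54e-07), from the 290 to 368 CPM given above to 122.8 to 192 CPM. Aldoa fell by 0.77 ± 0.08 (edgeR adjusted p = 3.28e-06), to 681, 631 and 584 CPM, and Aldoc fell by 1.88 ± 0.14 (edgeR adjusted p = 6.3e-08), between 2 classes whose shares of cells with an Aldoc UMI did not exceed that of the microglia by more than 1 SD. For each of these the ranges of the classes did not overlap.

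Pgam1 stood at 788, 718 and 668 CPM in the Igfbp2-high cycling cells, and its change of 0.24 (edgeR adjusted p = 0.00397) was lost without run 1 (0.0533), without run 2 (0.0523) and with cells of other types left out (log2 change 0.11, adjusted p = 0.215). Eno1 fell by 0.41 and Hk2 by 0.41, and Eno1b by 0.35. The Hk2 call was lost without run 2 (adjusted p = 0.0615) and that of Eno1b without run 3 (0.0625). On UMIs per cell, where the median gene was higher by 0.58, these 3 turned to 0.19, 0.19 and 0.24. Aldoa stood at -0.17 on that scale and did not pass (edgeR adjusted p = 0.089), while Slc2a1 (-0.59) and Aldoc (-1.29) still passed. In the main test Hk1, Pkm and Ldha did not pass. With the authors' own cell set the change of Aldoc was -1.18. Along the cycle genes, Slc2a1 went from 348 ± 49.5 CPM at 0 UMIs to 200 ± 48.5 at 2 to 4 and 136 ± 35.2 at 20 or more, and Aldoa from 1093 ± 72.3 to 755 ± 69.2 and 611 ± 42.5 (SD, n = 3 runs). Ldha stayed between 487 and 568 CPM over all 6 bins.

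In Igfbp2-low cells, cycling was accompanied by higher Ldha and lower Aldoc, and by lower enolase in CPM. Here 2 members rose, against 16.8% of all genes, and 6 fell, against 15.6%; the medians were -0.345 and -0.07. Ldha rose from 430, 349 and 325 CPM to 859, 505 and 437 CPM, and each cycling value lay above every non-cycling value (log2 change 0.62, edgeR adjusted p = 0.000254). It was 0.37 with cells of other types left out. Aldoc fell by 1.33 ± 0.14 (edgeR adjusted p = 5.28e-06) and by 3.71 under the stricter cycle limit. Eno1 fell by 0.83 and Eno1b by 0.80, and under that limit Eno1 fell by 1.71. Slc2a1 fell by 0.53 and turned to 0.18 on UMIs per cell, where the median gene was higher by 0.64. On that scale Eno1 stood at -0.12 and Eno1b at -0.08, and neither passed (edgeR adjusted p = 0.253 and 0.624). Hk1 and Aldoa were higher there and passed, at 0.32 (edgeR adjusted p = 0.0495) and 0.39 (0.00103). The calls of Hk1 (-0.38), Aldoa (-0.31) and Pgam1 (0.24) were each lost when a run was left out. Hk1 was lost without run 1 (adjusted p = 0.258) or run 3 (0.111) and stood at -0.60 without run 2, Aldoa was lost without run 2 (0.0959) or run 3 (0.0793), and Pgam1 without run 2 (0.0743) or run 3 (0.0744). Hk1 and Pgam1 did not pass either with cells of other types left out (0.0975 and 0.111).

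Whether the Igfbp2 difference itself depended on the cycle was tested with an interaction term, which 5 of the 10 members passed, against 14.3% of all genes tested. Ldha showed the largest difference with all cells kept: its Igfbp2 change was lower by 0.77 ± 0.14 in cycling than in non-cycling cells (edgeR adjusted p = 0.00243). With cells of other types left out it was -0.33 (adjusted p = 0.0317), smaller than those of Slc2a1 (-0.91), Hk2 (-0.90) and Aldoa (-0.49). The difference in Aldoc was -0.56 ± 0.19 and did not pass (edgeR adjusted p = 0.0669); it passed in the same direction in 6 of 14 alternatives, such as without run 3, at -0.72 (adjusted p = 0.00995). It was -0.26 (adjusted p = 0.501) with cells of other types left out, and turned to 1.74 (adjusted p = 0.000231) with cycling at 5 or more UMIs and to 0.59 (adjusted p = 0.133) with the authors' own cell set.

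Cdkn1c, an inhibitor of cyclin-dependent kinases, divided the non-cycling cells further, at 1 or more per 10000 UMIs against 0. Among Igfbp2-high non-cycling cells, 543 held Cdkn1c and 469 had none. Median depth per run lay between 15388 and 17732 UMIs in the cells with Cdkn1c and between 10790 and 11916 in those without. Those with Cdkn1c had more Slc2a1, Pgam1, Aldoa and Eno1 and less Aldoc and Ldha. In this comparison 4 members rose, against 17.7% of the 12042 genes tested, and 2 fell, against 12.6%; the medians were 0.30 and 0.05. Slc2a1 stood at 505, 407 and 391 CPM with Cdkn1c and at 192, 162 and 195 CPM without, far apart (log2 change 1.36 ± 0.08, edgeR adjusted p = 1.89e-09). In thinned cells 63.8% ± 6.26 and 36.5% ± 0.483 (SD, n = 3 runs) had a Slc2a1 UMI. Pgam1 stood at 768, 690 and 637 CPM against 556, 439 and 450 CPM (log2 change 0.65), and Aldoa at 1197, 1141 and 1101 CPM against 1036, 991 and 931 CPM (log2 change 0.33). Neither gene's classes overlapped.

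Aldoc stood at 125, 84.1 and 55.9 CPM with Cdkn1c and at 515, 309 and 278 CPM without (log2 change -1.92 ± 0.13, edgeR adjusted p = 4.9e-09). In thinned cells with Cdkn1c, 19.7% ± 7.08 held UMIs of both aldolases and 1.16% held Aldoc alone (SD, n = 3 runs). In cells with microglia markers these shares were 21.9% ± 11.8 and 4.49%. Aldoc in the class with Cdkn1c is therefore not read as expression, and the size of the change may not be that of a change in expression. The astrocyte markers moved with this division: 28.6% of the cells without Cdkn1c were called astrocytes by markers and 0.552% of those with it. The summed list was at 2557 to 3288 CPM without Cdkn1c and 131 to 267 CPM with it, with 5 of 6 and 2 of 6 markers at 10 CPM or more. Pax2, which marks retinal astrocytes, stood at 49.1 to 84.0 CPM without and 0 to 0.616 CPM with Cdkn1c. The pericyte marker Rgs5 went the same way, from 708 to 1204 CPM down to 0.447 to 16.03 CPM, and its part in the result was not tested. With cells of other types left out, Aldoc stood at 123.1, 78.3 and 56.3 CPM against 258, 146 and 217 CPM. Its change was then -1.22 (edgeR adjusted p = 3.82e-06), and -0.44 (adjusted p = 0.0902) with the authors' own cell set.

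Ldha stood at 646, 470 and 458 CPM with Cdkn1c and 919, 731 and 706 CPM without (log2 change -0.47, edgeR adjusted p = 7.67e-06). On UMIs per cell, where the median gene was higher by 0.39, it was -0.13 and did not pass (edgeR adjusted p = 0.24). With cells of other types left out it stood at 643, 467 and 450 CPM against 622, 516 and 465 CPM, and the difference was gone (log2 change -0.01, adjusted p = 0.974). With the authors' own cell set it turned to 0.29. Eno1, at 0.32, likewise moved to -0.03 (adjusted p = 0.829). Slc2a1 kept 1.31 and Pgam1 0.36 without the other cell types. Aldoa was at 0.19. Hk1, Hk2, Pkm and Eno1b did not pass.

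In Igfbp2-low non-cycling cells Cdkn1c went with smaller changes and with more, not less, Aldoc. Here 3 members rose, against 4.24% of all genes, and 0 fell, against 4.92%; the medians were 0.08 and 0.00. At an unadjusted edgeR p under 0.05, 4 were higher and 0 lower, against 22.6% of all genes in either direction. DESeq2 called 3 members higher and 0 lower, against 343 higher and 487 lower of all 12042 genes tested. Aldoc stood at 1236, 875 and 1007 CPM with Cdkn1c and at 981, 642 and 696 CPM without, ranges that overlap, though it was higher with Cdkn1c in all 3 runs (log2 change 0.41, edgeR adjusted p = 0.0176). It was lost without run 2 (adjusted p = 0.0963). The rise of Eno1 (0.25, adjusted p = 0.0221) was lost without run 2 (0.154) or run 3 (0.199), and that of Slc2a1 (0.25, adjusted p = 0.0442) without run 1 (0.0541), run 2 (0.268) or run 3 (0.106). Median depth per run lay between 7671.5 and 8988 UMIs with Cdkn1c and between 8497 and 10239 without. On UMIs per cell, where the median gene was lower by 0.11, none of these 3 rises passed. Aldoc stood at 0.30 (edgeR adjusted p = 0.0777), Eno1 at 0.14 (0.357) and Slc2a1 at 0.14 (0.378). The difference of the Cdkn1c change between Igfbp2-high and Igfbp2-low cells passed the test for 5 members, against 27.1% of all genes. It was largest for Aldoc, at -2.32 ± 0.16 (edgeR adjusted p = 2.82e-08), and next for Slc2a1, at 1.11 ± 0.11 (edgeR adjusted p = 1.73e-06). The Aldoc value involves the Igfbp2-high cells with Cdkn1c, where Aldoc is not read as expression. The share of Aldoc in the aldolase UMIs was 52.7% ± 3.22 with and 44.2% ± 4.56 without Cdkn1c in Igfbp2-low cells, and 7.05% ± 2.32 with and 26.7% ± 5.69 without it in Igfbp2-high cells (SD, n = 3 runs).

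The counts of the enolases, which make phosphoenolpyruvate, moved together. Their 3′ ends are near-identical, so the counts may not tell Eno1 and Eno1b apart. Eno1 stood at 3090, 1495.4 and 2787 CPM in Igfbp2-low non-cycling cells and at 1598, 688 and 1308 CPM in Igfbp2-high non-cycling cells. Run 2 was low in both, so the ranges overlap while each run fell. Eno1b stood at 285, 68.9 and 224 CPM against 146, 30.9 and 106 CPM, with the same order of runs (log2 change -1.0 ± 0.10, edgeR adjusted p = 1.75e-06). The Eno1b share of the enolase UMIs was 6.76% ± 2.1 and 6.72% ± 2.14 (SD, n = 3 runs) in these classes, and its mean lay between 6.60% and 7.0% in every class. Within each class, run 2 had the lowest share. Run 2 lay 0.99 below the mean of the other runs in Eno1 and 1.86 below in Eno1b on the log2 scale. Only 22 and 6 of the 2891 genes at 50 CPM or more were lower. For Aldoc the gap was 0.39, with 71 genes lower.

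The other genes of the pathway were read from lists, given here for 2 of the comparisons. In the first, 27.8% of all genes rose and 29.6% fell, and the counts of each list stand against those shares. Between Igfbp2-high and Igfbp2-low non-cycling cells, 2 of 14 other glycolytic enzymes rose and 7 fell, among them Pgk1, which makes ATP next to Pgam1 (log2 change 1.00), and Ldhb, the lactate dehydrogenase paired with Ldha (-1.23). Of 8 glucose and lactate carriers 3 rose and 4 fell: the lactate exporter Slc16a3 rose by 1.13, its chaperone Bsg by 0.38, and Slc16a1 fell by 0.54. Of 8 regulators 2 rose and 4 fell, with Pfkfb3, an activator of phosphofructokinase, at 0.75, and Txnip, a brake on glucose uptake, at -2.67. In the list for serine synthesis, which branches off at 3-phosphoglycerate before Pgam1, 3 of 5 rose and 0 fell (Phgdh 2.55, Psat1 0.84, Shmt1 3.42). Shmt1 and Shmt2 of this list interconvert serine and glycine and are not steps of that branch.

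Of 14 hypoxia-inducible genes outside glycolysis 6 rose and 5 fell, with Hif1a at 1.56, P4ha1 at 1.99 and Bnip3l at -0.60. In the pentose phosphate pathway 3 of 8 rose and 2 fell (Tkt 0.96), in glycogen metabolism 1 of 10 rose and 4 fell (Pygb -1.36), and among genes for the fate of pyruvate 6 of 12 rose and 5 fell (Pdha1 1.07). Of 4 splicing factors that set the form of pyruvate kinase 3 rose and 0 fell; the 3′ counts do not separate the forms of Pkm. From non-cycling to cycling Igfbp2-high cells, where 24.8% of all genes rose and 23.2% fell, 0 of the 14 other glycolytic enzymes rose and 7 fell (Ldhb -0.62, Bpgm -0.54). In the same comparison 1 of 14 hypoxia-inducible genes rose and 8 fell (Hif1a -0.84), and 1 of 8 carriers rose and 4 fell (Slc2a3 -1.32). Of the serine list 4 of 5 genes rose (Shmt2 0.70), and all 4 splicing factors rose (Ptbp1 0.86).

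The genes most like 6 of the members were found over the 12 class sums, 4 classes in each of 3 runs, after each run's mean was taken out. These sums share libraries and runs, so the correlations are descriptions. Slc2a1 was followed most closely by Fzd5, a Wnt receptor (Pearson r = 0.993). Cxx1a (0.977) and Slc3a2, a partner of amino acid carriers (0.970), came next. For Aldoc the closest were Plekhb1, Fxyd1 and Gstt1, each at 0.998. Eno1 was closest to Adamts1 (0.997) and to Gldc, a glycine-cleaving enzyme (0.995). Aldoa was closest to Ccdc107 (0.991) and Hk1 to Xpr1, a phosphate exporter (0.987). Hk2, the lowest of the 10, had the weakest match, H2-D1 (0.905).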

How the data were processed

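The members and lists were chosen with earlier results of these data known. The deposited UMI counts of 3 runs were used as given; per the submitters' processing notes they come from Cell Ranger on mm10 and from Seurat 2.3.4, and the aligner's version is not given in the sources used here. A table of 13511 cells that the authors deposited holds natural log values of counts per 10000 UMIs, and it served here only to say which cells they kept. Filters of 500 genes and 20% mitochondrial UMIs removed 23 cells. No doublet caller was run; an alternative left out the 5% of cells with the most UMIs.

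Counts were summed per class and run, since cells are not replicates. Runs held 94858762, 122888236 and 97032672 UMIs. Low genes were removed by filterByExpr and libraries scaled by TMM. The quasi-likelihood test of edgeR 4.0.16 followed (R 4.3.3, limma 3.58.1). Run was a block because the classes of a run come from the same library. P-values were Benjamini-Hochberg adjusted over all genes tested, at 0.05; the genes that define classes stayed out of the tests. Isoform ratios were tested by exact sign flips. DESeq2 1.42.0 was an alternative. Python 3.11.15, numpy 2.4.6, scipy 1.17.1 and matplotlib 3.10.9 were used, and the fits were tested on simulated data. For Igfbp2 in non-cycling cells, 68.7% of 1.5-fold and 80% of 2-fold changes were recovered, and 2.63% of calls were false. For Cdkn1c in Igfbp2-high cells these values were 42.3%, 71.3% and 3.57%. Small changes that did not pass may therefore have been missed. The simulations changed 199 and 191 of the genes tested, about as many up as down, with the same dispersion for every gene. In the data 8207 and 3649 genes passed in these comparisons, so the false shares need not hold for the real calls.

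All members were named in the comparisons, with values for those called; of each list at most 4 called genes, those with the highest level. Likeness took genes at 50 CPM or more. Cells of other types were those with 3 or more microglia or cone markers, a Pax2 UMI or 2 of Igf1, Cxcl14 and Pdgfra, or 100 rod UMIs per 10000; these limits were chosen after the data were seen.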

Additional observations from a re-analysis of the deposited data

Results flagged for a closer look

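In 10 cases the effect of one division of the cells differed between the 2 classes of the other, by an interaction term in edgeR (Benjamini-Hochberg adjusted over all genes). Of the Igfbp2 change, cycling minus non-cycling, the difference was -0.77 for Ldha (adjusted p = 0.00243), -0.71 for Hk2 (0.0305), -0.65 for Slc2a1 (0.0226), -0.46 for Aldoa (0.0194) and 0.43 for Eno1 (0.0188), on the log2 scale. Ldha rose with Igfbp2 in non-cycling cells (0.75) and stood at -0.01 in cycling cells, where it passed at 0.24 (adjusted p = 0.00771) with cells of other types left out and at 0.45 (adjusted p = 0.0009) on UMIs per cell. Its difference passed without each run in turn and came to -0.33 (adjusted p = 0.0317) with cells of other types left out, where that of Eno1 came to 0.16 and did not pass (0.419). The Slc2a1 difference was lost without run 2 (adjusted p = 0.215), and that of Aldoa without run 1 (0.0519) or run 2 (0.194). With cycling set at 5 or more UMIs, Slc2a1 came to -0.31 and Aldoa to -0.17, and neither passed. The Hk2 difference was lost without run 1 (0.0618), run 2 (0.209) or run 3 (0.0924), and that of Eno1 without run 1 (0.136), run 2 (0.064) or run 3 (0.101).

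Of the Cdkn1c change, Igfbp2-high minus Igfbp2-low, the difference was -2.32 for Aldoc (edgeR adjusted p = 2.82e-08), 1.11 for Slc2a1 (1.73e-06), 0.69 for Pgam1 (1.4e-05), -0.44 for Ldha (0.000585) and 0.42 for Aldoa (0.000202). These 5 passed without each run in turn. With cells of other types left out, the difference was -1.64 for Aldoc, 1.06 for Slc2a1, 0.41 for Pgam1 (adjusted p = 0.00191), 0.29 for Aldoa and 0.04 for Ldha (adjusted p = 0.843). The Aldoc values involve Igfbp2-high cells with Cdkn1c, where Aldoc is not read as expression.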

How the results depend on the processing

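The 51 member changes that passed the test kept direction and side of the threshold in 558 recomputations under an alternative, lost the call in 122 and turned in direction in 20. The 29 that did not pass stayed so in 279, gained a call in 34 and turned in direction in 77; values follow only for those whose value the report gives. Among counts of genes called, 77 stayed within 1.5 times and 32 did not; among isoform ratios, 49 moved by less than 1 SD and 21 by more. The cause of the changes was not tested. The Igfbp2-low cycling class is limited by its 88 to 105 cells per run, at median depths of 11767 to 14593.5 UMIs.

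The Igfbp2 change of Ldha in cycling cells, -0.01, turned to 0.061 with no low-count filter, 0.092 without run 1 (range on leaving out 1 run, -0.103 to 0.092), 0.45 on UMIs per cell, 0.069 in thinned cells, 0.29 with Igfbp2 of at least 20 against 0, 0.043 in the authors' cells, 0.24 with cells of other types left out and 0.107 without the top 5% of UMIs.

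On UMIs per cell, Hk1 turned to 0.071 and Pkm to 0.41 between Igfbp2 classes in non-cycling cells, and Hk1 to 0.14, Aldoa to 0.22 and Pkm to 0.15 in cycling cells. Between cycle classes, Hk2 turned to 0.19, Eno1 to 0.19 and Eno1b to 0.24 in Igfbp2-high cells, and Slc2a1 to 0.18, Hk1 to 0.32 and Aldoa to 0.39 in Igfbp2-low cells. The Cdkn1c by Igfbp2 difference of Ldha turned to 0.017. Counts of genes called were 7814 (main 4642) for the cycle in Igfbp2-low cells, 5915 (main 3649) for Cdkn1c in Igfbp2-high cells and 5932 (main 3260) for the Cdkn1c by Igfbp2 difference.

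Without the replicate block the calls numbered 894 (main 2051) for the Igfbp2 by cycle difference, 2430 for Cdkn1c in Igfbp2-high cells, 25 (main 1103) for Cdkn1c in Igfbp2-low cells and 1549 for the Cdkn1c by Igfbp2 difference; 27 member calls were lost. Leaving out 1 run gave 559 to 1424, 436 to 613 and 2069 to 2282 calls for the Igfbp2 by cycle difference, Cdkn1c in Igfbp2-low cells and the Cdkn1c by Igfbp2 difference.

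With cells thinned to 3500 UMIs and classes set anew from the thinned counts, so that depth and class members changed together (Igfbp2-high non-cycling cells in run 1 went from 444 to 796), the calls were 878 (main 6458) for Igfbp2 in cycling cells, 4323 (main 6868) and 2730 for the cycle in Igfbp2-high and Igfbp2-low cells, 907 for the Igfbp2 by cycle difference, 901 and 245 for Cdkn1c in Igfbp2-high and Igfbp2-low cells, and 482 for their difference. Eno1b turned to 0.17 between Igfbp2 classes in cycling cells. The log2 ratio of Aldoc to Aldoa moved to -1.51 and -1.56 for the cycle, and -1.42 and 0.37 for Cdkn1c, in Igfbp2-high and Igfbp2-low cells; that of Eno1b to Eno1 moved to 0.044 from -0.014 between Igfbp2 classes in non-cycling cells.

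With Igfbp2 of at least 20 against 0 the calls were 2741, 1324 and 596 for the cycle in Igfbp2-low cells, the Igfbp2 by cycle difference and Cdkn1c in Igfbp2-low cells. The Aldoc ratio was -2.71 and -3.12 between Igfbp2 classes in non-cycling and cycling cells, -0.71 for the cycle in Igfbp2-low cells and -3.15 for Cdkn1c in Igfbp2-high cells, and the Eno1b ratio 0.032. With cycling at 5 or more UMIs, 2804 genes passed between Igfbp2 classes in cycling cells, where Aldoa turned to 0.036, Eno1 to 0.26 and Eno1b to 0.38, and the Aldoc ratio moved to -0.42; it was -3.04 for the cycle in Igfbp2-low cells, and the Igfbp2 by cycle difference of Aldoc turned to 1.74. Without the top 5% of UMIs the Aldoc ratio between Igfbp2 classes in cycling cells was -2.71.

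In the authors' cells the calls were 3823 for Igfbp2 in cycling cells, 927 for the Igfbp2 by cycle difference, 725 and 397 for Cdkn1c in Igfbp2-high and Igfbp2-low cells, and 214 for their difference. The Igfbp2 by cycle difference of Aldoc turned to 0.59, the Cdkn1c changes of Eno1 and Ldha in Igfbp2-high cells to -0.040 and 0.29, and the Cdkn1c by Igfbp2 difference of Ldha to 0.40. The Aldoc ratio was -3.21 between Igfbp2 classes in non-cycling cells, -0.30 for the cycle in Igfbp2-high cells, and -0.62 and 0.59 for Cdkn1c. With cells of other types left out the calls were 1232 for the Igfbp2 by cycle difference, 1233 for Cdkn1c in Igfbp2-high cells and 969 for the Cdkn1c by Igfbp2 difference. Eno1 turned to -0.032 for Cdkn1c in Igfbp2-high cells and the difference of Ldha to 0.040. The Aldoc ratio was -2.95 and -2.67 between Igfbp2 classes in non-cycling and cycling cells, -0.52 for the cycle and -1.46 for Cdkn1c in Igfbp2-high cells.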

Other observations

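Cells of other types in the sort carried the same 10 genes at other levels. Cells with microglia markers (55, 30 and 12 in runs 1, 2 and 3) had Pkm at 1333 ± 279 CPM and Ldha at 868 ± 268 CPM (SD, n = 3 runs), with Slc2a1 at 77.0 ± 32.4 CPM. Cells with astrocyte markers (70, 84 and 83) had Ldha at 1111 ± 269 CPM, Aldoc at 531 ± 320 CPM and Slc2a1 at 186 ± 13.5 CPM. Aldoa was nearly level, at 888 ± 62.2 CPM in the first and 865 ± 44.1 CPM in the second. These cells were few and were chosen by markers, so no test was run between them.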
